A study of Homo sapiens with 12 samples.

Results

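The R7 group of regulators of G-protein signalling was followed through 12 RNA-seq libraries of EndoC-βH1 cells, a human beta-cell line. Its 7 genes, of 21508 gene identifiers in the libraries, are the R7 regulators RGS9, RGS6, RGS7 and RGS11, their obligate partner GNB5, and the membrane anchors RGS7BP and RGS9BP. The genes were matched by Entrez Gene identifier, and all 7 passed the filter on low counts. They were chosen because RGS9 was lower with 1-AKP and higher with TUNAR siRNAs in these same libraries, so the RGS9 values in those comparisons are given as a description, without a test. The RGS7BP values were also known at that time, so its tests are not independent of the choice.

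The cells carried siRNAs against TUNAR, a conserved long intergenic transcript, or a negative control siRNA. After 2 days they received 1-AKP, an inhibitor of the kinase GSK3, at 5 µM, or the solvent DMSO at 1:1000, for 24 hours. The 4 groups of 3 libraries were TUNAR siRNAs with 1-AKP, negative siRNA with 1-AKP, TUNAR siRNAs with DMSO, and negative siRNA with DMSO. All groups went through lipid transfection, so none shows untransfected cells, and all come from 1 cell line. Replicates 1 and 2 were at passage 74 and replicate 3 at passage 75. The labels do not say that replicates were separate cultures, so the p-values reflect the spread among these libraries and no more. In bulk RNA, fewer cells of a type and less RNA per cell cannot be told apart.

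R7 proteins speed the hydrolysis of GTP by G-protein alpha subunits of the Gi/o class and so shorten signals from Gi/o-coupled receptors. Each carries a G-gamma-like domain that binds GNB5, an atypical G-protein beta subunit, and the proteins are unstable without it. A further domain binds RGS7BP or RGS9BP, small anchors that bring the complex to the membrane, and the orphan receptors GPR158 and GPR179 can also hold it there. RGS9 is best known from photoreceptors, where with RGS9BP it ends the light response, and from the striatum, where with RGS7BP it limits dopamine and opioid signalling. In beta cells, Gi/o-coupled receptors such as those for adrenaline and somatostatin restrain insulin secretion.

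The libraries held between 15653786 and 15986834 expected counts. Levels are given as CPM, counts scaled by library total and composition, or as the authors' FPKM, which also allow for gene length. TUNAR itself was measured at 6.95, 10.5 and 13.6 CPM with TUNAR siRNAs and 27.9, 31.0 and 30.8 CPM with negative siRNA in 1-AKP. In DMSO it was measured at 3.83, 7.22 and 8.07 CPM with TUNAR siRNAs and 14.4, 19.9 and 17.7 CPM with negative siRNA. The groups did not overlap in either medium, as for 4.52% of tested genes in that direction in 1-AKP and 5.28% in DMSO. The log2 fold changes of TUNAR were -1.53 ± 0.245 in 1-AKP and -1.44 ± 0.263 in DMSO (SE, n = 3 each). edgeR's quasi-likelihood test with Benjamini-Hochberg adjustment gave adjusted p = 0.159 and 0.248, and adding the replicate number as a block gave 0.000674 and 0.00248. Without replicate number 2 the blocked adjusted p was 0.0876 in 1-AKP and 0.156 in DMSO. With 1-AKP and without the block, edgeR gave TUNAR a log2 fold change of 0.70 ± 0.274 under TUNAR siRNAs (adjusted p = 0.164). Under negative siRNA it was 0.79 ± 0.234 (adjusted p = 0.0718). The 1-AKP libraries lay above all DMSO libraries under negative siRNA, as for 13.4% of tested genes, and overlapped them under TUNAR siRNAs. All 11 beta-cell markers examined reached 1 FPKM, while 6 of 9 photoreceptor and bipolar-cell markers, SAG and NRL among them, and all 6 striatal markers stayed below 1 FPKM in every library.

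Per unit of length, GNB5 and RGS7 made up most of the R7 message. GNB5 averaged 19.7 FPKM over the 12 libraries, with a range of 18.1 to 22.4. RGS7 averaged 8.86 FPKM, with a range of 8.03 to 9.66. RGS9 came next at 1.37 FPKM, with a range of 0.42 to 2.51. These 3 genes lay above 80.4%, 64.6% and 39.7% of all 21508 gene identifiers by mean FPKM, which include genes that did not pass the filter. RGS11 averaged 0.681 FPKM (0.50 to 0.99), RGS7BP 0.475 (0.28 to 0.79), RGS6 0.345 (0.08 to 0.70) and RGS9BP 0.169 (0.04 to 0.35), and the ranges of these last members overlapped with their neighbours in the order. Of the summed FPKM of the 4 R7 regulators, RGS7 held between 69.7% and 87.4% in single libraries. The share of RGS9 averaged 8.85% with TUNAR siRNAs and 4.85% with negative siRNA in 1-AKP. In DMSO it averaged 19.2% with TUNAR siRNAs and 13.96% with negative siRNA. GNB5 FPKM was between 1.52 and 2.17 times that sum in every library.

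**Figure D1:**
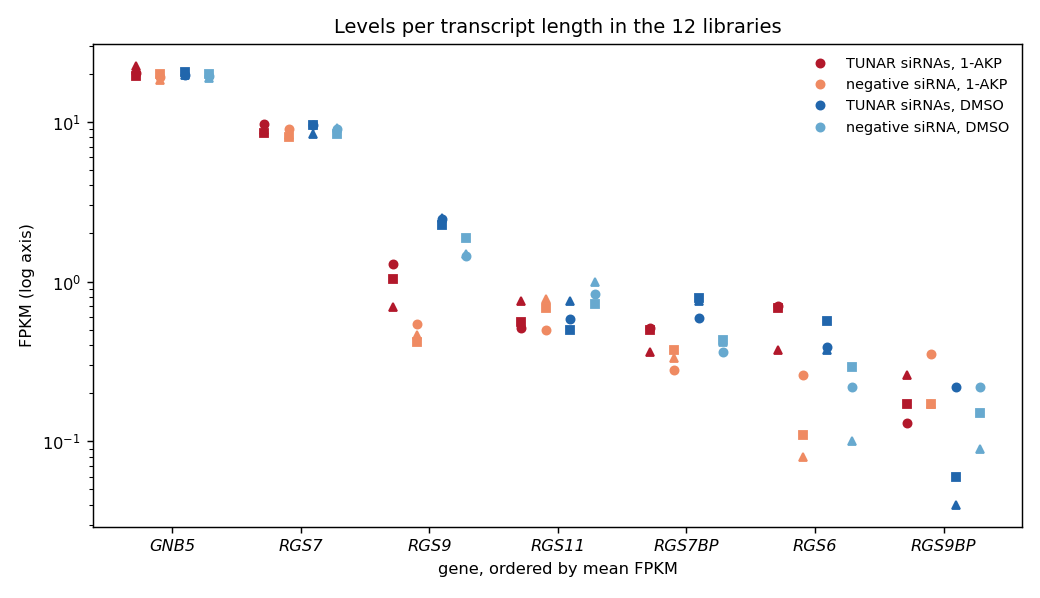
FPKM (log axis) of the 7 genes in each of the 12 libraries, with colours for the 4 groups and circle, square and triangle for replicates 1, 2 and 3. GNB5 (18.1 to 22.4 FPKM) and RGS7 (8.03 to 9.66 FPKM) lie in narrow bands above the others, while RGS9 (0.42 to 2.51 FPKM) and RGS6 (0.08 to 0.70 FPKM) are spread widely.

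The members also differed in how much they varied. The coefficient of variation of CPM over the 12 libraries was 61.2% for RGS6, 59.2% for RGS9, 50.3% for RGS9BP, 34.7% for RGS7BP and 22.9% for RGS11, but 5.87% for RGS7 and 5.42% for GNB5. The 12 libraries span the 4 groups, so this spread includes the differences between groups, on which RGS9 was chosen. Counting error is also part of it in the low genes. RGS9BP had between 2 and 16 expected counts per library, RGS6 between 6 and 43, RGS9 between 13 and 87, RGS11 between 19 and 38 and RGS7BP between 19 and 57. A count of 2 has an exact 95% Poisson interval of 0.242 to 7.22, a count of 13 one of 6.92 to 22.2 and a count of 87 one of 69.7 to 107, and these intervals cover counting error only. GNB5, with 859 to 1059 counts, and RGS7, with 319 to 377, were measured far more precisely.

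RGS9, the member that led to the choice, was measured at 2.70, 2.15 and 1.27 CPM in replicates 1, 2 and 3 with TUNAR siRNAs and 1-AKP, against 1.14, 0.82 and 1.02 CPM with negative siRNA and 1-AKP. In DMSO it was measured at 5.47, 5.26 and 5.20 CPM with TUNAR siRNAs, against 2.93, 3.92 and 3.13 CPM with negative siRNA. All 3 libraries with TUNAR siRNAs lay above all 3 with negative siRNA in each medium, as for 4.47% of tested genes in 1-AKP and 5.17% in DMSO. All 1-AKP libraries lay below all DMSO libraries of the same siRNA, as for 12% of tested genes with TUNAR siRNAs and 12.6% with negative siRNA. The 4 groups therefore formed an order without overlap, in which negative siRNA with 1-AKP was lowest and TUNAR siRNAs with DMSO highest. RGS9 with 1-AKP was 38.5% of its DMSO mean with TUNAR siRNAs and 29.8% with negative siRNA, and the log2 fold changes were -1.38 and -1.74. RGS9 with TUNAR siRNAs was 2.06 times its mean with negative siRNA in 1-AKP and 1.60 times in DMSO, and the log2 fold changes were 1.04 and 0.67. In length-corrected units the same groups averaged 1.00 ± 0.296 FPKM (TUNAR siRNAs, 1-AKP), 0.473 ± 0.0611 (negative siRNA, 1-AKP), 2.41 ± 0.132 (TUNAR siRNAs, DMSO) and 1.60 ± 0.226 FPKM (negative siRNA, DMSO; SD, n = 3 each).

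By replicate number, the difference in RGS9 between TUNAR and negative siRNA was 1.16, 1.27 and 0.29 log2 CPM in 1-AKP and 0.87, 0.41 and 0.71 in DMSO. The smallest of these 6 differences came from replicate 3 in 1-AKP, where the TUNAR siRNA library had 1.27 CPM. The difference between 1-AKP and DMSO was -0.98, -1.24 and -1.93 with TUNAR siRNAs and -1.28, -2.10 and -1.51 with negative siRNA. The direction was therefore the same in each pair of either kind. The difference between the siRNA effects in 1-AKP and in DMSO was not a ground for the choice of RGS9. It was tested on the same libraries, so the test is not independent of that choice. This difference was 0.36 ± 0.342 on the log2 scale (SE, n = 3 each), with an adjusted p of 0.99995 by edgeR, in a test that called 0% of the 15990 genes. RGS9 was not called between replicate numbers, with a log2 fold change of 0.14 for number 1 against 2 and 3 and an adjusted p of 0.521, although 41.5% of tested genes were called in that comparison.

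**Figure D2:**
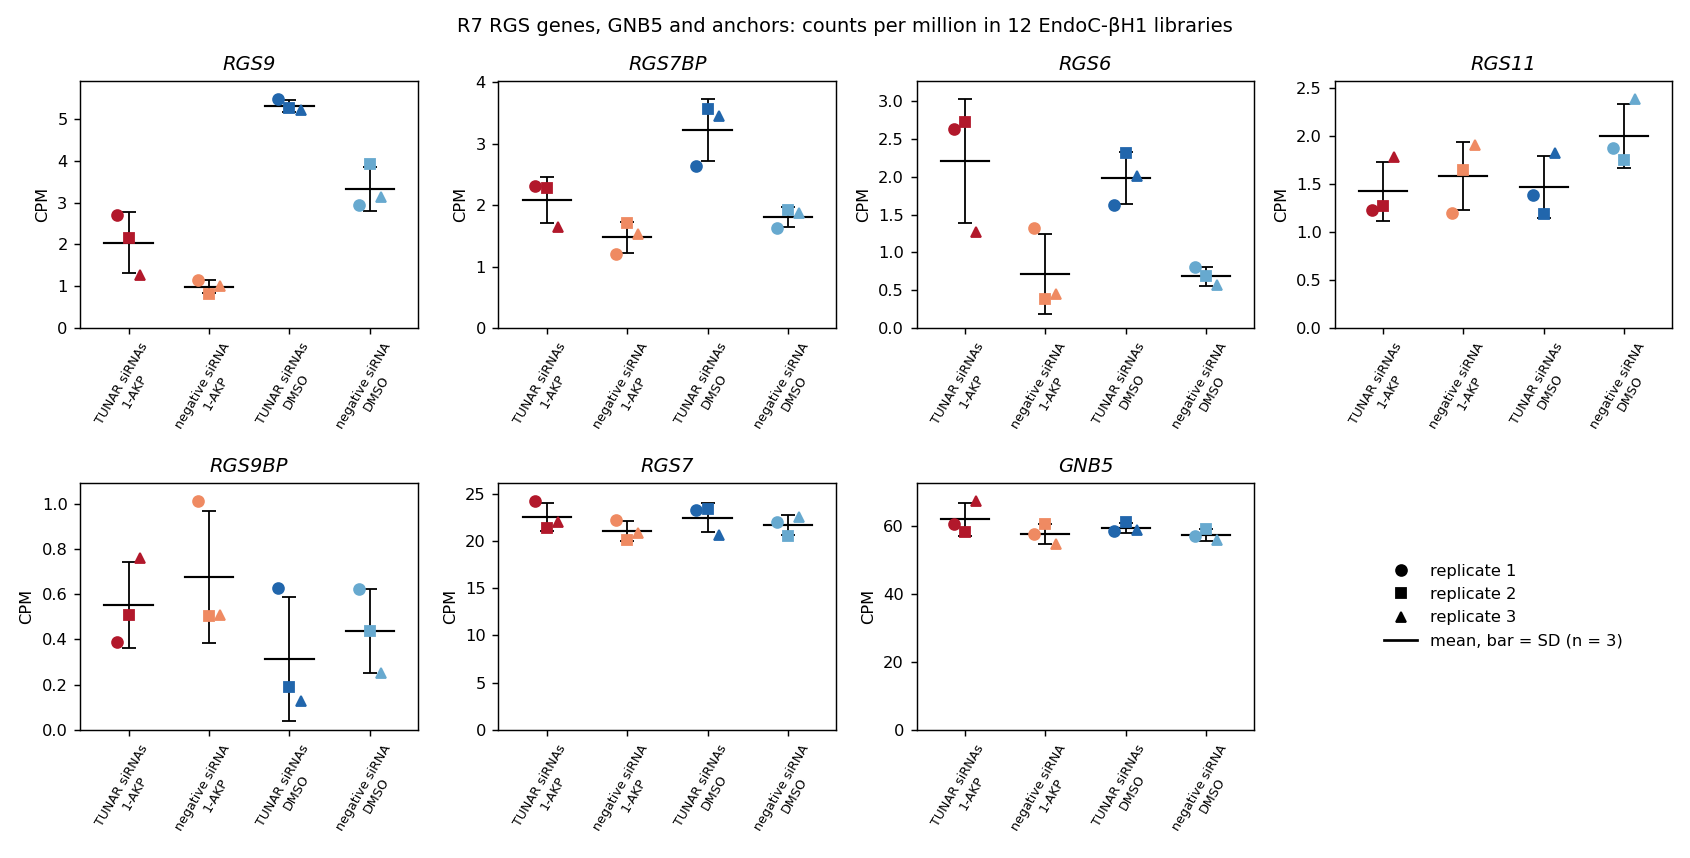
CPM of each of the 7 genes in the 4 groups, as points for replicate 1 (circle), 2 (square) and 3 (triangle) with the mean and SD of each group (n = 3). In the RGS9 panel the 4 groups do not overlap, from 0.82 to 1.14 CPM in negative siRNA with 1-AKP up to 5.20 to 5.47 CPM in TUNAR siRNAs with DMSO, while in the GNB5 and RGS7 panels all groups share a range.

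Apart from RGS9, the 6 members were tested across the whole table of genes. RGS7BP is among them, and its values were known at the choice, so its calls are not independent support. Without the replicate number, edgeR called 0 of the 6 in either siRNA comparison, against 0.0125% of all tested genes in DMSO and 0% in 1-AKP. It called 2 and 0 genes in all, while 776 and 743 genes had an unadjusted p under 0.05 and DESeq2 called 19 and 9. The same replicate numbers deviated together across these groups, and with the number as a block edgeR called 2 of the 6 in DMSO, both higher, against 3.05% of all genes (1.71% higher). In 1-AKP it called 1 of the 6, also higher, against 2.77% of all genes (1.44% higher). The median log2 fold change of the 6 with TUNAR siRNAs was 0.10 in 1-AKP and 0.05 in DMSO, beside -0.000701 and -0.00189 for all genes. With 1-AKP, edgeR called 0 of the 6 with TUNAR siRNAs, against 7.51% of all genes, and 0 of the 6 with negative siRNA, against 7.3%. Their median log2 fold change was 0.03 with TUNAR siRNAs and -0.02 with negative siRNA.

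Of the anchors, RGS7BP, which tethers R7 complexes in brain, was measured at 2.32, 2.28 and 1.65 CPM with TUNAR siRNAs and 1.201, 1.70 and 1.53 CPM with negative siRNA in 1-AKP. The DMSO values were 2.64, 3.57 and 3.45 CPM with TUNAR siRNAs and 1.62, 1.93 and 1.88 CPM with negative siRNA. The siRNA groups did not overlap in DMSO, which held for 5.17% of all genes in that direction, and overlapped in 1-AKP by replicate 3 of the TUNAR siRNA group. The log2 fold change with TUNAR siRNAs was 0.49 ± 0.217 in 1-AKP and 0.83 ± 0.201 in DMSO (SE, n = 3 each), with an adjusted p of 0.526 in DMSO by edgeR. With the replicate block RGS7BP rose in DMSO, with an adjusted p of 0.0211, and in 1-AKP the blocked adjusted p was 0.335. These values were known when the members were chosen, so the p-values describe them and are not independent support. The call in DMSO was lost without replicate number 1, 2 or 3, with blocked adjusted p-values of 0.0631, 0.218 and 0.171. Of the 23 alternative settings that gave a p for RGS7BP in DMSO, 1 called it, with adjusted p-values from 0.0211 to 1 and log2 fold changes from 0.29 to 0.95.

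With 1-AKP, RGS7BP had a log2 fold change of -0.63 ± 0.198 with TUNAR siRNAs, with an adjusted p of 0.0768, and -0.29 ± 0.220 with negative siRNA, with an adjusted p of 0.514. Its groups did not overlap with TUNAR siRNAs, as for 12% of all genes in that direction, and overlapped with negative siRNA. Paired by number, RGS7BP was higher with TUNAR siRNAs in 6 of 6 pairs and lower with 1-AKP in 6 of 6 pairs. Over all tested genes, 6.67% were higher with TUNAR siRNAs in all 6 pairs and 17.2% were lower with 1-AKP in all 6. The siRNA and 1-AKP pairs use the same libraries, so these counts are not separate evidence. RGS9 gave the same pair counts by the way it was chosen, and the RGS7BP values were known at the choice.

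RGS9BP, the anchor of the photoreceptor complex, was close to the limit of detection, at 0.39, 0.51 and 0.76 CPM with TUNAR siRNAs and 1.01, 0.50 and 0.51 CPM with negative siRNA in 1-AKP. DMSO gave 0.63, 0.19 and 0.13 CPM with TUNAR siRNAs and 0.62, 0.44 and 0.25 CPM with negative siRNA. All of its groups overlapped, and no difference was detectable at this depth. It was higher with TUNAR siRNAs in 3 of 6 pairs and higher with 1-AKP in 5 of 6. Its difference between replicate number 1 and numbers 2 and 3, 0.71 ± 0.335 on the log2 scale, had the lowest adjusted p of the members in that comparison, at 0.0907. Between replicate numbers 3 and 2, edgeR called 0 of the 6 members against 2.83% of all genes.

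The 2 receptors that hold R7 complexes at the membrane were expressed at 1.82 FPKM (GPR179) and 1.63 FPKM (GPR158) on average. GPR179, which anchors RGS7 and RGS11 in retinal bipolar cells, was measured at 9.59, 19.6 and 15.9 CPM with TUNAR siRNAs and 7.46, 12.04 and 11.5 CPM with negative siRNA in 1-AKP. In DMSO the values were 12.4, 24.0 and 20.6 CPM with TUNAR siRNAs and 9.62, 15.8 and 17.4 CPM with negative siRNA. Replicate 1 was lowest in every group, and the groups overlapped. Within numbers GPR179 was higher with TUNAR siRNAs in 6 of 6 pairs, as for 6.67% of tested genes. It was lower with 1-AKP in 6 of 6, as for 17.2%. Both kinds of pair use the same libraries, and the numbers were not taken to pair libraries in the 1-AKP comparisons. edgeR without the block gave adjusted p = 1 in both media, for log2 fold changes of 0.54 ± 0.333 in 1-AKP and 0.41 ± 0.319 in DMSO. With the block GPR179 rose by 0.53 ± 0.093 in 1-AKP (adjusted p = 0.000538) and by 0.41 ± 0.0842 in DMSO (adjusted p = 0.00295), and without replicate number 2 the adjusted p-values were 0.0858 and 0.216. GPR158, a partner of RGS7 in brain, averaged 10.9 CPM with TUNAR siRNAs and 11.6 CPM with negative siRNA in 1-AKP, and 10.5 CPM with TUNAR siRNAs and 10.7 CPM with negative siRNA in DMSO. It was not called in the siRNA comparisons by edgeR, with or without the block.

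**Figure D3:**
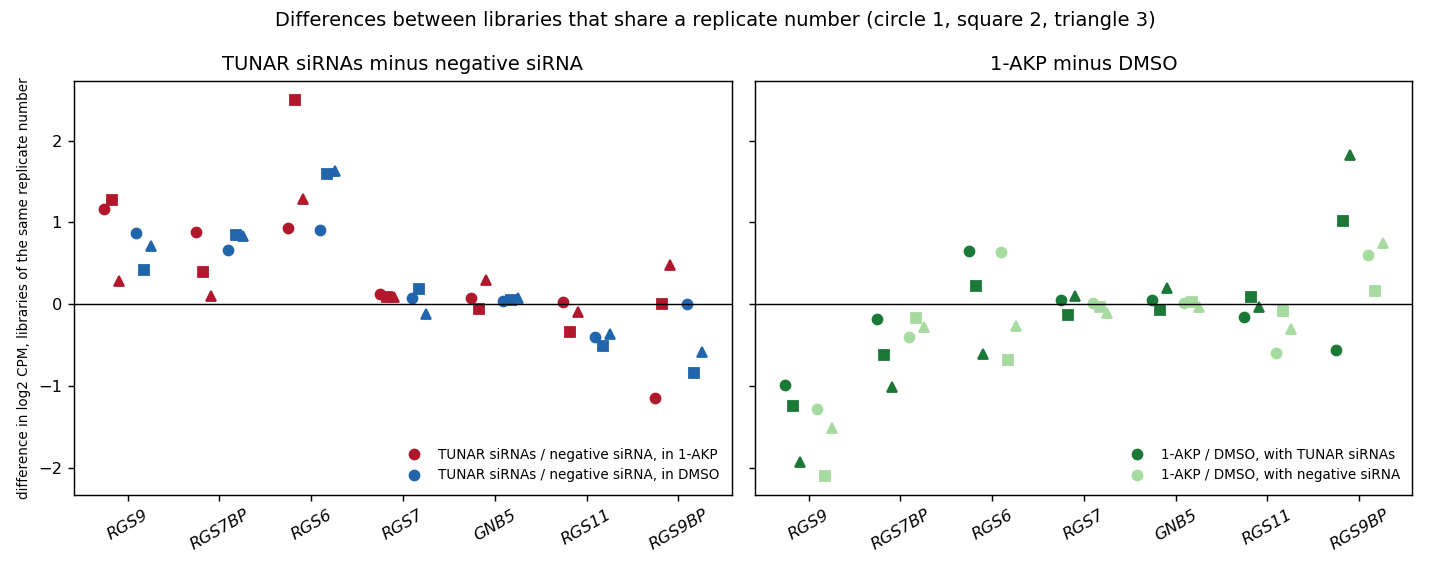
Differences in log2 CPM within replicate numbers for the 7 genes, as TUNAR minus negative siRNA in 1-AKP and DMSO and as 1-AKP minus DMSO with each siRNA (circle, square and triangle for numbers 1, 2 and 3). RGS9 and RGS7BP lie above 0 in all 6 siRNA pairs and below 0 in all 6 1-AKP pairs, and RGS6 lies above 0 in all siRNA pairs and on both sides of 0 with 1-AKP.

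RGS6, an R7 regulator known for limiting muscarinic signalling in the heart, was low with negative siRNA and higher with TUNAR siRNAs. In 1-AKP it was measured at 2.64, 2.72 and 1.27 CPM with TUNAR siRNAs and 1.33, 0.38 and 0.45 CPM with negative siRNA. In DMSO it was measured at 1.63, 2.32 and 2.01 CPM with TUNAR siRNAs and 0.81, 0.68 and 0.56 CPM with negative siRNA. The groups did not overlap in DMSO, which held for 5.17% of all tested genes in that direction. In 1-AKP the groups overlapped by replicate 3 with TUNAR siRNAs and replicate 1 with negative siRNA. The log2 fold change was 1.61 ± 0.416 in 1-AKP, with an adjusted p of 0.624, and 1.52 ± 0.422 in DMSO, with an adjusted p of 0.654 (edgeR, SE, n = 3 each).

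With the replicate block RGS6 rose by 1.61 ± 0.330 in 1-AKP (adjusted p = 0.0038) and by 1.54 ± 0.336 in DMSO (adjusted p = 0.00587). The call in 1-AKP was lost without replicate number 2, with an adjusted p of 0.206. The call in DMSO was lost without number 2 or 3, with adjusted p-values of 0.107 and 0.0939. Of the alternative settings with a p, 3 of 22 called RGS6 in 1-AKP and 2 of 23 in DMSO, all of them with the block. Its adjusted p ran from 0.000742 to 1 in 1-AKP and from 0.00336 to 1 in DMSO, and the log2 fold change stayed above 0 in each setting. Unlike RGS9, RGS6 was on both sides of 0 with 1-AKP, with a log2 fold change of 0.15 with TUNAR siRNAs and 0.06 with negative siRNA, and it was higher with 1-AKP in 3 of 6 pairs. The gene length that the authors' quantification gave to RGS6 ran from 2417 to 5546 bases across libraries, which moves its FPKM apart from its counts. On log2(FPKM + 0.1) with limma, its log2 fold change with TUNAR siRNAs was 1.48 in 1-AKP and 0.88 in DMSO, on a scale that understates changes of low genes.

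RGS7, the most abundant R7 regulator here, was measured at 24.3, 21.4 and 22.1 CPM with TUNAR siRNAs and 22.3, 20.1 and 20.9 CPM with negative siRNA in 1-AKP. The DMSO libraries held 23.3, 23.4 and 20.7 CPM with TUNAR siRNAs and 22.0, 20.5 and 22.5 CPM with negative siRNA. The groups overlapped in all 4 comparisons, and the log2 fold changes lay between -0.04 and 0.10. RGS11 is a regulator that acts beside RGS7 in retinal bipolar cells. In 1-AKP it was measured at 1.22, 1.27 and 1.78 CPM with TUNAR siRNAs and 1.201, 1.64 and 1.91 CPM with negative siRNA. In DMSO it was measured at 1.38, 1.19 and 1.82 CPM with TUNAR siRNAs and 1.87, 1.74 and 2.38 CPM with negative siRNA. It was lower with TUNAR siRNAs in 5 of 6 pairs and lower with 1-AKP in 5 of 6, its groups overlapped, and its log2 fold changes, between -0.45 and -0.04, did not pass the test. RGS11 overlaps FAM234A by gene span in the annotation, a gene with 2436 to 2870 counts per library. Whether any exons or reads are shared was not checked. RGS6 overlaps DPF3, with 23 to 55 counts, in the same way.

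GNB5, the beta subunit that every R7 regulator needs, was nearly flat. It was measured at 60.4, 58.0 and 67.2 CPM with TUNAR siRNAs and 57.5, 60.4 and 54.6 CPM with negative siRNA in 1-AKP. The DMSO libraries held 58.3, 60.9 and 58.7 CPM with TUNAR siRNAs and 56.9, 59.0 and 55.8 CPM with negative siRNA. Its groups overlapped in all comparisons, with log2 fold changes between 0.01 and 0.11. GNB5 overlaps CERNA1, a gene with 29 to 61 counts per library.

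**Figure D4:**
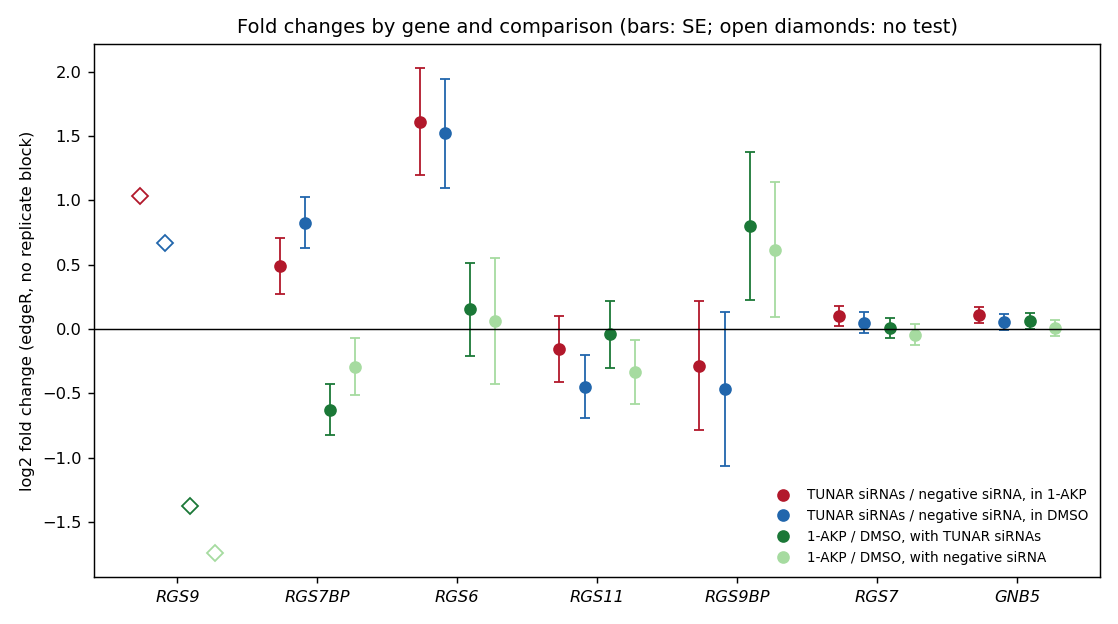
Log2 fold changes with SE (edgeR without replicate block, n = 3 each) of the 7 genes for TUNAR against negative siRNA in 1-AKP and DMSO and for 1-AKP against DMSO with each siRNA. Open diamonds mark RGS9, which was chosen on these values and was not tested; RGS6 (1.61 and 1.52) has the highest siRNA values and GNB5 and RGS7 stay within 0.11 of 0.

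The promoters of the 3 members with the highest siRNA values are shown because they share a direction in those pairs. They are RefSeq sequences on GRCh38.p14, from 250 bases before to 50 bases after the first listed start, all on the plus strand. RGS9 is at chr17:65137120-65137419, RGS7BP at chr5:64505765-64506064 and RGS6 at chr14:71931921-71932220. Capitals mark TGACG, the core of the cAMP response element, read on either strand.
RGS9: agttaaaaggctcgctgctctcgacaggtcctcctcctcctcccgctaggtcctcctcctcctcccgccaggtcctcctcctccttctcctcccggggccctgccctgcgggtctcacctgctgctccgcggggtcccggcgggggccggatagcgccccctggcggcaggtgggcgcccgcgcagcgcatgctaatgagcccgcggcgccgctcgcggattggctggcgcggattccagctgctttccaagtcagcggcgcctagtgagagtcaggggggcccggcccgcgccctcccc
RGS7BP: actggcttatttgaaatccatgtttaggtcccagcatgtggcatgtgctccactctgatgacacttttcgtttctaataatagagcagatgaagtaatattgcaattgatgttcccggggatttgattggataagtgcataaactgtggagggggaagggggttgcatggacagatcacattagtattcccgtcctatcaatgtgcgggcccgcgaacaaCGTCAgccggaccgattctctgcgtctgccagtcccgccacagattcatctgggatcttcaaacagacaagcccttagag
RGS6: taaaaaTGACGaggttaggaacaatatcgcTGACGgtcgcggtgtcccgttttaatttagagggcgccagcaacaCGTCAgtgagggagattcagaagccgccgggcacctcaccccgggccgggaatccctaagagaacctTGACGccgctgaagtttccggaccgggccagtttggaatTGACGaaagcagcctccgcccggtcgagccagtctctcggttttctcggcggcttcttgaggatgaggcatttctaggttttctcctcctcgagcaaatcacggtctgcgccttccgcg

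The RGS9 window held no match to the 3 motif types searched on both strands, and the RGS7BP window held 1 TGACG. The RGS6 window held 5 matches to TGACG, a number reached by 25 of 35097 promoter windows of the same length (0.0712%), while 24.5% held at least 1. The other motifs searched were CTTTGA or CTTTGT, the core bound by TCF/LEF factors that act below GSK3, held by 26.2% of windows, and TGTTTAC, bound by FOXO factors, held by 3.42%. Neither was found in these 3 windows. Among the other listed starts of the 6 members with one, start 2 of GNB5 held 3 matches to TGACG and start 3 of RGS6 held 1 to TGTTTAC, and the rest held none. The motifs were chosen with the values known, and a match of letters is a description of the window only. Of the 7 members, 6 were in the table of starts.

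The genes next to RGS9 were not called in these comparisons. AXIN2, a target and inhibitor of Wnt signalling, had log2 fold changes with 1-AKP of -0.18 with TUNAR siRNAs (adjusted p = 0.483) and -0.10 with negative siRNA (adjusted p = 0.746), and with TUNAR siRNAs of -0.02 in 1-AKP and 0.07 in DMSO. GNA13, which encodes a G-protein alpha subunit of the G12/13 class, stayed within 0.08 of 0 in all 4 comparisons. AXIN1, the paralogue of AXIN2 in the GSK3 complex, had log2 fold changes with 1-AKP of 0.04 with TUNAR siRNAs (adjusted p = 0.807) and 0.14 with negative siRNA (adjusted p = 0.327). Around RGS7BP, RNF180 had -0.27 with 1-AKP under TUNAR siRNAs (adjusted p = 0.675) and -0.66 under negative siRNA (adjusted p = 0.211), and SHISAL2B had -0.28 (adjusted p = 0.528) under TUNAR siRNAs and -0.04 (adjusted p = 0.951) under negative siRNA. Next to RGS6, SIPA1L1 had log2 fold changes with TUNAR siRNAs of 0.02 in 1-AKP and 0.08 in DMSO. The tested neighbours of the other members, ANKRD27, NUDT19, BCL2L10, MYO5C and FH, were likewise not called in the 4 comparisons by edgeR without the block.

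Among the partners and targets of the R7 complex, the G proteins were far more abundant than the regulators. GNAS, the Gs alpha subunit, averaged 3687 FPKM, GNAI2, an inhibitory alpha subunit, 185 FPKM, GNA11, a Gq-class alpha subunit, 61.6 FPKM, and GNAO1, the Go alpha subunit that R7 proteins act on, 43.3 FPKM. The conventional beta subunits GNB1, GNB2 and GNB4 averaged 233, 213 and 8.20 FPKM, and the leading gamma subunits GNG10, GNG5 and GNG4 averaged 69.4, 51.7 and 50.1 FPKM. Of the other RGS genes, RGS3, RGS4 and RGS2 of the R4 family averaged 12.5, 11.4 and 6.37 FPKM, and RGS12, RGS17 and RGS14 of the R12 and RZ families 7.78, 5.55 and 3.48 FPKM. SSTR2, SSTR3 and SSTR1, somatostatin receptors coupled to Gi, averaged 44.3, 31.2 and 28.8 FPKM, and ADRA2A, the alpha-2 adrenergic receptor, 8.74 FPKM.

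With 1-AKP and TUNAR siRNAs, 2 of 14 tested Gi/o-coupled receptors fell and 0 rose, 1 of 8 gamma subunits fell and 1 of 11 effectors rose, and 0 of 12 alpha subunits, 0 of 4 conventional beta subunits, 0 of 5 R4 and 0 of 5 RZ and R12 regulators were called, against 7.51% of all genes. With 1-AKP and negative siRNA, 1 of 8 gamma subunits fell, 1 of 11 effectors and 1 of 4 beta subunits rose, and 0 of 14 receptors were called, against 7.3% of all genes. A single call among 8 or 11 genes lies near these shares. GNG2, a gamma subunit, was measured at 95.9, 73.0 and 65.2 CPM with 1-AKP and 123, 112 and 104 CPM with DMSO under TUNAR siRNAs, a log2 fold change of -0.54 ± 0.120 (adjusted p = 0.0205). Under negative siRNA it was measured at 85.03, 74.8 and 73.6 CPM with 1-AKP and 123, 118 and 114 CPM with DMSO, a log2 fold change of -0.61 ± 0.120 (adjusted p = 0.0118). ADCY8, a calcium-stimulated adenylyl cyclase, was measured at 91.7, 101 and 91.2 CPM with 1-AKP and 64.7, 77.3 and 69.8 CPM with DMSO under TUNAR siRNAs, a log2 fold change of 0.42 ± 0.0909 (adjusted p = 0.015). Under negative siRNA its log2 fold change was 0.40 ± 0.0908 (adjusted p = 0.0205). For both genes the 1-AKP and DMSO libraries did not overlap under either siRNA. Of all tested genes, 12% under TUNAR siRNAs and 12.6% under negative siRNA were lower with 1-AKP without overlap. The shares that were higher without overlap were 12.1% under TUNAR siRNAs and 13.4% under negative siRNA.

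GNB1 rose by 0.15 ± 0.0339 under negative siRNA (adjusted p = 0.0232), with 755 to 789 CPM with 1-AKP and 687 to 710 CPM with DMSO. The receptors that fell under TUNAR siRNAs were SSTR1, at 112, 113 and 103 CPM with 1-AKP and 138, 151 and 131 CPM with DMSO (adjusted p = 0.0126), and HTR1D, a serotonin receptor, at 10.9, 12.5 and 13.4 CPM with 1-AKP and between 15.9 and 16.1 CPM with DMSO (adjusted p = 0.0385). With 1 library left out some of these calls were lost while the direction held. The log2 fold changes then ran from -0.67 to -0.57 for GNG2, 0.32 to 0.47 for ADCY8 and 0.13 to 0.17 for GNB1 under negative siRNA. Under TUNAR siRNAs they ran from -0.71 to -0.42 for GNG2, 0.36 to 0.49 for ADCY8, -0.41 to -0.30 for SSTR1 and -0.45 to -0.31 for HTR1D. GNG2 lost its call under negative siRNA without 1-AKP replicate 2 or 3 (highest adjusted p 0.0578), and under TUNAR siRNAs without DMSO replicate 1 or 2 or 1-AKP replicate 2 or 3 (highest 0.0801). ADCY8 lost it under negative siRNA without DMSO replicate 1 or 3 or 1-AKP replicate 2 or 3 (highest 0.0946), and under TUNAR siRNAs without DMSO replicate 1 or 3 or 1-AKP replicate 2 (highest 0.0660). GNB1 lost it without any DMSO replicate or 1-AKP replicate 2 or 3 of the negative siRNA (highest 0.103), SSTR1 without DMSO replicate 2 or 1-AKP replicate 3 of the TUNAR siRNAs (highest 0.0650), and HTR1D without DMSO replicate 1, 2 or 3 or 1-AKP replicate 1 or 2 of the TUNAR siRNAs, or DMSO replicate 2 or 3 or 1-AKP replicate 3 of the negative siRNA (highest 0.107).

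With TUNAR siRNAs, edgeR without the block called 0 genes of these lists. With the block, in 1-AKP 1 of 11 effectors and 1 of 14 receptors rose, and in DMSO 1 of 11 effectors and 1 of 12 alpha subunits rose and, of 14 receptors, 1 rose and 1 fell, while 0 beta subunits, gamma subunits and other RGS genes were called in either medium. Over all genes the block called 2.77% in 1-AKP and 3.05% in DMSO. ADCY1, another calcium-stimulated adenylyl cyclase, was measured at 165, 209 and 186 CPM with TUNAR siRNAs and 143, 173 and 174 CPM with negative siRNA in 1-AKP. In DMSO it was measured at 185, 221 and 212 CPM with TUNAR siRNAs and 157, 178 and 185 CPM with negative siRNA. With the block it rose by 0.20 ± 0.0358 in 1-AKP (adjusted p = 0.00085, and 0.0922 without replicate number 2) and by 0.25 ± 0.0352 in DMSO (adjusted p = 2.57e-05, and at most 0.00942 without any 1 number).

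SSTR5, a Gi-coupled somatostatin receptor, fell by 0.81 on the log2 scale in DMSO with the block (adjusted p = 0.00186, and 0.0505 without replicate number 2), at 5.34, 3.82 and 3.07 CPM with TUNAR siRNAs and 9.24, 6.91 and 5.20 CPM with negative siRNA. The libraries overlapped, and replicate 1 was highest in both groups. PTGER3, a Gi-coupled prostaglandin receptor, rose by 0.28 in DMSO (adjusted p = 0.0137), GNAS by 0.09 in DMSO (adjusted p = 0.0439) and SSTR3 by 0.14 in 1-AKP (adjusted p = 0.0258). Each of these last 3 calls was lost without replicate number 2 or 3, with adjusted p-values up to 0.287 for PTGER3, 0.478 for GNAS and 0.302 for SSTR3.

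Markers of beta-cell identity moved in the same libraries. They also differed by replicate number: in number 1 against 2 and 3, edgeR called 10 of the 11 lower and 1 higher, against 41.5% of all genes called. NKX2-2, a beta-cell transcription factor, was measured at 59.3, 69.0 and 73.0 CPM with 1-AKP and 107, 133 and 130 CPM with DMSO under TUNAR siRNAs, and at 64.0, 69.4 and 66.3 CPM with 1-AKP and 105, 118 and 124 CPM with DMSO under negative siRNA. NKX2-2 fell by 0.87 under TUNAR siRNAs (adjusted p = 0.00026) and by 0.80 under negative siRNA (adjusted p = 0.000532) on the log2 scale. NKX6-1, another such factor, fell with 1-AKP by 0.48 under TUNAR siRNAs (adjusted p = 0.00254) and by 0.52 under negative siRNA (adjusted p = 0.00159). With TUNAR siRNAs, 3 of the 11 markers (IAPP, PDX1 and NKX6-1) fell in both media with the block and 0 without it, against 1.33% of all genes lower with the block in 1-AKP and 1.34% in DMSO. PDX1 lost its call without replicate number 3 in 1-AKP (adjusted p = 0.105) and without number 2 or 3 in DMSO (up to 0.135), and NKX6-1 without number 1 or 2 in 1-AKP (up to 0.396) and without number 3 in DMSO (0.0563). IAPP, which encodes the islet peptide amylin, fell by 0.35 in 1-AKP (adjusted p = 3.21e-05) and by 0.36 in DMSO (adjusted p = 1.18e-06). With 1-AKP and without the block, 2 of the 11 fell under TUNAR siRNAs, against 3.79% of all genes lower, and 3 under negative siRNA, against 3.76%. The third was IAPP (adjusted p = 0.0494), which lost its call in 9 of the 12 fits that left out 1 library, with adjusted p-values up to 0.176. With the block, 7 of the 11 fell with 1-AKP under TUNAR siRNAs, against 12.9% of all genes lower. Under negative siRNA it was also 7, against 12.8%. The numbers were not taken to pair libraries in the 1-AKP comparisons. The summed FPKM of the 11 beta-cell markers ran from 26455 to 35103 with TUNAR siRNAs and 27164 to 32380 with negative siRNA in 1-AKP, and from 27819 to 34853 with TUNAR siRNAs and 27483 to 33606 with negative siRNA in DMSO, so the groups overlapped. The summed FPKM of the 9 photoreceptor and bipolar-cell markers was between 5.5 and 6.54 and that of the striatal markers between 0 and 0.28 in all libraries.

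Markers of other pancreatic and blood cell types gave 0 calls without the block in the 4 comparisons. GCG of 3 alpha-cell markers, HHEX, PPY and GHRL of 4 delta-, PP- and epsilon-cell markers, 4 of 6 duct and acinar markers and 5 of 7 mesenchyme, endothelium and blood markers were below 1 FPKM in every library. With the block and TUNAR siRNAs, 1 of 5 tested markers of the last list and 1 of 2 tested duct and acinar markers were called. CD68, a macrophage and lysosomal marker, fell by 0.45 in 1-AKP (adjusted p = 0.00145) and by 0.47 in DMSO (adjusted p = 0.00164, and 0.0598 without replicate number 2). It was measured at 39.7, 28.3 and 28.0 CPM with TUNAR siRNAs and 53.7, 43.0 and 34.7 CPM with negative siRNA in 1-AKP. KRT19, a duct marker, rose by 0.21 in DMSO (adjusted p = 0.00524, and 0.239 without replicate number 2). The summed FPKM of the alpha-cell markers ran from 1176 to 1468 with TUNAR siRNAs and 1235 to 1588 with negative siRNA in 1-AKP, and from 1276 to 1582 with TUNAR siRNAs and 1346 to 1710 with negative siRNA in DMSO. For the delta-, PP- and epsilon-cell markers it ran from 6.08 to 44.2 with TUNAR siRNAs and 6.36 to 44.6 with negative siRNA in 1-AKP, and from 6.73 to 53.5 with TUNAR siRNAs and 7.49 to 47.0 with negative siRNA in DMSO. These sums overlapped between the siRNAs, as did those of the next lists. Part of their width is a difference by replicate number. SST, the 1 tested gene of the delta-, PP- and epsilon-cell list, was called higher in number 1 than in 2 and 3, by 2.65 on the log2 scale. Over the 7 markers of mesenchyme, endothelium and blood the summed FPKM ran from 16.6 to 23.4 with TUNAR siRNAs and 19.8 to 30.5 with negative siRNA in 1-AKP, and from 12.9 to 21.8 with TUNAR siRNAs and 15.8 to 29.2 with negative siRNA in DMSO. Summed FPKM of the 6 duct and acinar markers ran from 50.7 to 62.4 with TUNAR siRNAs and 48.97 to 58.7 with negative siRNA in 1-AKP, and from 52.7 to 64.7 with TUNAR siRNAs and 49.4 to 59.1 with negative siRNA in DMSO. The part of these markers, and of the beta-cell markers, in the values of RGS9 and the other members was not tested.

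The genes with profiles nearest to that of RGS9 were found by the root mean square difference of centred log2 CPM over the 12 libraries, among the 13761 genes whose log2 CPM averaged 1 or more. The nearest were ITGBL1 (0.358), BCAS3 (0.369), FOXO4 (0.387), GPR119 (0.409) and KLHL24 (0.410), beside a median of 0.899 for all genes. They were picked on these values, which were not tested. ITGBL1, an integrin-like secreted protein, averaged 1.96 CPM with TUNAR siRNAs and 1.03 CPM with negative siRNA in 1-AKP, and 3.84 CPM with TUNAR siRNAs and 2.44 CPM with negative siRNA in DMSO. GPR119, a Gs-coupled receptor of beta cells for lipid ligands, averaged 3.70 CPM with TUNAR siRNAs and 2.38 CPM with negative siRNA in 1-AKP, and 6.75 CPM with TUNAR siRNAs and 4.31 CPM with negative siRNA in DMSO. Their 4 group means stood in the order of those of RGS9, a pattern they were picked for.

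The other 3 had the same order of group means, but for each of them the TUNAR and negative siRNA libraries overlapped in DMSO. In replicate 3 in DMSO, centred log2 CPM was lower with TUNAR siRNAs for FOXO4 (0.67 against 0.76) and BCAS3 (0.70 against 0.73). FOXO4, a forkhead transcription factor, averaged 2.25 CPM with TUNAR siRNAs and 1.65 CPM with negative siRNA in 1-AKP, and 5.90 CPM with TUNAR siRNAs and 5.62 CPM with negative siRNA in DMSO. BCAS3 averaged 2.93 CPM with TUNAR siRNAs and 2.15 CPM with negative siRNA in 1-AKP, and 7.005 CPM with TUNAR siRNAs and 6.49 CPM with negative siRNA in DMSO. KLHL24, a substrate adaptor of a ubiquitin ligase, averaged 15.2 CPM with TUNAR siRNAs and 13.9 CPM with negative siRNA in 1-AKP, and 45.3 CPM with TUNAR siRNAs and 43.3 CPM with negative siRNA in DMSO. Of the other R7 members, RGS7BP stood at place 86 with a distance of 0.608, RGS7 at 4001 and GNB5 at 6524, while RGS6, RGS9BP and RGS11 were below the minimum level.

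**Figure D5:**
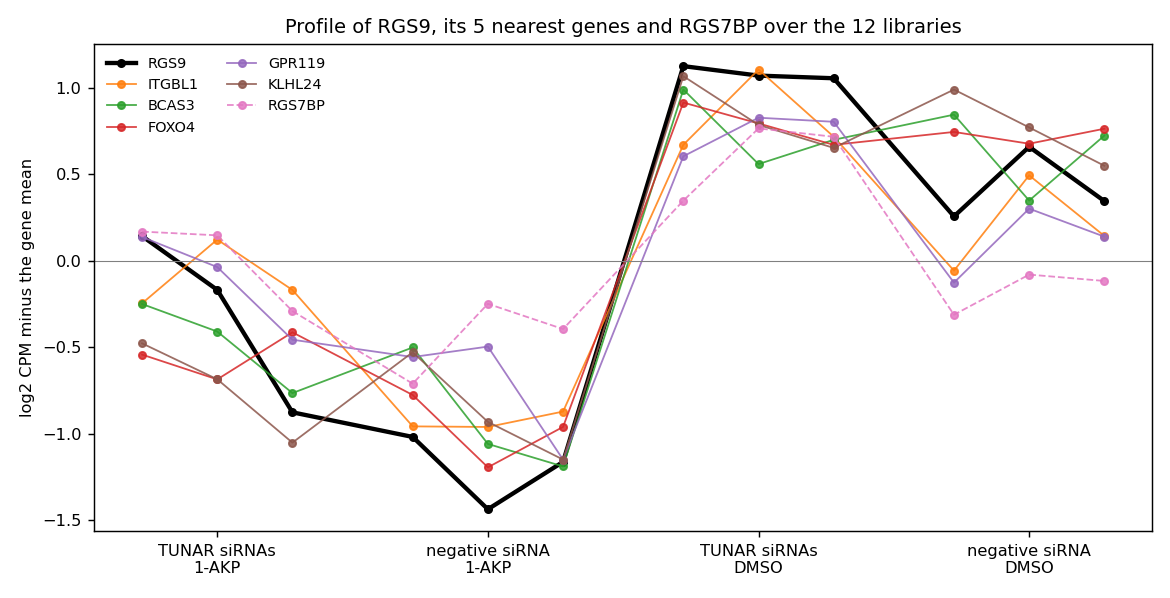
Centred log2 CPM of RGS9, the 5 genes with the nearest profiles and RGS7BP (dashed) in the 12 libraries, grouped by siRNA and medium. Lines only help to follow a gene, since replicates have no order. By group mean, RGS9 and the 5 nearest genes are lowest in negative siRNA with 1-AKP and highest in TUNAR siRNAs with DMSO. FOXO4, BCAS3 and KLHL24 overlap between the siRNAs in DMSO.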

How the data were processed

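Polyadenylated RNA was sequenced in 12 libraries on a HiSeq instrument after random priming, per the labels' protocols, with no strand marking stated. The authors deposited, per the file headers, an expected count for each gene and library, an estimate of reads that is not normalised. The deposited FPKM values are scaled by gene length and library total, per the file headers. A length for each gene, in bases and in no expression unit, was also deposited. GRCh37 and hg19 are the builds given per the submitters' processing notes, which list BWA, RSEM and Bowtie as tools and no versions. Only genes above 0 were listed, and an unlisted gene was taken as 0.

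Expected counts were rounded, and genes were kept by edgeR 4.0.16 (filterByExpr, minimum count 10, minimum total 15), which left 15990 genes and 99.942% of counts. CPM used TMM factors, between 0.990 and 1.01. The quasi-likelihood test was fitted to the 4 groups together in R 4.3.3, with 8 residual degrees of freedom, and adjusted over all tested genes by Benjamini-Hochberg at 0.05. The alternatives were the replicate number as a block, DESeq2 1.42.0, limma 3.58.1 on log2(FPKM + 0.1) and log2(FPKM + 1), library size as the only scaling, no filter, passage as a covariate, passage 74 alone and leaving out each library. A number was taken to pair libraries where every same-number correlation of deviations was over 0.1. In the siRNA comparisons these were 0.416, 0.162 and 0.286 in 1-AKP and 0.376, 0.178 and 0.217 in DMSO, so blocked values stand beside those results. The block assumes 1 shift of a number in all groups. No pair of libraries within a group agreed within sampling noise (chi-square per degree of freedom 2.37 to 11.9).

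The members and gene lists were chosen with earlier results of these data known, RGS9 and RGS7BP values among them. Genes named beside the members were up to 3 called genes of lowest p in each list and comparison (with the block where the first fit called none; for 1-AKP these are in the closing section), the 3 most abundant of each G-protein and RGS list, the neighbouring genes, both axins and the 5 profiles nearest to RGS9. GNAO1, the 4 receptors given by level and GPR158 were named for their role. Of 135 list entries, 123 were in the files, and some further markers are not reported here. The fits were tested on simulated data. siRNA sequences were not used here.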

Additional observations from a re-analysis of the deposited data

How the results depend on the processing

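With the replicate block, edgeR called 2 of the 6 members other than RGS9 with TUNAR siRNAs in DMSO, against 3.05% of all genes. It called 1 with TUNAR siRNAs in 1-AKP, against 2.77%, and 1 with 1-AKP under TUNAR siRNAs (RGS7BP, adjusted p 0.0223), against 27.1%. Under negative siRNA it called 0 with 1-AKP, against 26.8%. Without the block each of these member counts was 0. In the 1-AKP comparisons the same-number correlations were 0.407, 0.0634 and 0.159 under TUNAR siRNAs and 0.427, 0.0871 and 0.223 under negative siRNA. Number 2 was under 0.1 in each, so by the rule above the numbers were not taken to pair libraries there. Numbers 1 and 3 were over 0.1, so the block may still matter in these comparisons. In lists without a call the block added, for both 1-AKP comparisons, RGS4, GPR179, TTR and CPA1 (lower) and CD68 (higher). It also added GNAS, GNAO1 and GNA15 in both, of which 1 was higher and 2 lower under negative siRNA. Under TUNAR siRNAs it further added IRX2 (lower), GNB1 (higher), GNAI1 and GNAZ. Of all alpha subunits called there, 3 were higher and 2 lower. Under negative siRNA it added RGS14, ADRA2A, SSTR1 and SSTR5 (lower). In lists that already had a call, it added ADRA2A, CHRM4, SSTR5 and ADCY1 (lower) and KCNJ3 (higher) under TUNAR siRNAs. Under negative siRNA these were ADCY3 and KCNJ6 (higher). With the block, ADRA2A, SSTR1 and SSTR5 were therefore called lower under both siRNAs. Over all genes the block gave 488 calls in the siRNA comparison in DMSO (2 without it), 443 in that in 1-AKP (0), 4335 for 1-AKP under TUNAR siRNAs (1201) and 4285 under negative siRNA (1168). DESeq2 called 19 genes in the siRNA comparison in DMSO, 9 in that in 1-AKP and 204 for replicate 3 against 2 (edgeR 453), and limma 1 and 1 in the siRNA comparison in DMSO and 131 and 126 for replicate 3 against 2. Without a count filter 1 gene was called in the siRNA comparison in 1-AKP. Passage 74 alone left 0 siRNA calls in DMSO, 67 for 1-AKP under TUNAR siRNAs and 51 under negative siRNA, and ended the 1-AKP calls of GNG2, ADCY8, GNB1, SSTR1, HTR1D, IAPP, NKX6-1 and, under negative siRNA, NKX2-2 (adjusted p 0.0623 to 0.393), with fewer libraries and log2 fold changes that kept their sign (under negative siRNA -0.59 for GNG2, 0.43 for ADCY8 and 0.14 for GNB1). IAPP also lost its call under negative siRNA without a count filter (adjusted p 0.102) and with passage as a covariate (0.0577).

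Leaving out 1 library kept the members' calls at 0 to 0 in the 4 comparisons and in the difference of siRNA effects, and gave 0 to 1 for replicate 1 against the others. With the block and 1 number left out it gave 0 to 1 in both siRNA comparisons and for 1-AKP under TUNAR siRNAs, and 0 to 0 under negative siRNA. Over all genes the ranges were 0 to 2 (siRNA in DMSO), 0 to 3 (siRNA in 1-AKP), 511 to 1284 (1-AKP, TUNAR siRNAs), 492 to 1389 (1-AKP, negative siRNA), 0 to 0 (difference), 5759 to 6493 (replicate 1) and 179 to 686 (replicate 3 against 2). With the block and number 1, 2 or 3 left out, the counts were 327, 122 and 243 (siRNA in DMSO), 306, 130 and 223 (siRNA in 1-AKP), 3978, 2966 and 2695 (1-AKP, TUNAR siRNAs), 3824, 2901 and 2706 (1-AKP, negative siRNA) and 4, 5 and 5 (difference). No called value of a named gene changed sign, and 68 of 946 uncalled values of members did. RGS9 moved most with limma on log2(FPKM + 1), to 0.43 and 0.39 with TUNAR siRNAs in 1-AKP and DMSO and -0.78 and -0.82 with 1-AKP under TUNAR and negative siRNA, and to -1.49 with the block without number 2 under negative siRNA. RGS9 ran from 0.42 to 2.51 FPKM, and adding 1 before the log shrinks the ratios of values that low. Number 2 had the largest RGS9 difference with 1-AKP under negative siRNA, at -2.10 log2 CPM. Nothing else about these shifts was tested. Depth limits RGS9BP and RGS6 most.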
